A study of Mus musculus with 6 samples.

Results

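Lysosomal hydrolases, their cofactors and the proteins of the lysosomal membrane were described in the liver of male and female mice. The group held 35 genes, named as a list of symbols by their role in the lysosome. The list was chosen with earlier results of these data known. Each was found once in the table of 24197 genes, and each was among the 10936 genes averaging 0.5 FPKM or more over both sexes (fragments per kilobase of transcript, scaled for library size, so a level per length). By role they were 11 proteases, 10 glycosidases, 4 lipid hydrolases, 3 soluble cofactors and 7 membrane proteins.

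Livers came from intact adult mice of the outbred CD-1 stock (Charles River). Males were aged 7 to 9 weeks and females 7 to 11 weeks, and neither sex received a treatment in the labels other than being left intact. Poly-A selected liver RNA gave 6 strand-specific libraries, 3 per sex, and each library was a pool of 17 male or 12 female livers, so pool size and upper age went with sex. The deposited values are the authors' mean FPKM per sex over the 3 pools, so no value per pool and no standard deviation can be printed, and a gene is here said to be called when the adjusted p of the authors' deposited table was under 0.05. That p rests on 3 pools per sex, and it cannot be told from the labels whether the pools shared livers. Library totals recovered from the lowest values lay between 28358105 and 42673908 reads, so that 1 FPKM stood for about 108 reads per kilobase over the female pools and 109 over the male pools. Xist, which inactivates an X chromosome in female cells, averaged 22.5 FPKM in females and 0.0199 FPKM in males, and the Y-linked Ddx3y averaged 0.0303 and 9.60 FPKM. Hepatocyte markers were abundant in both sexes, with albumin (Alb) at 19411 FPKM in females and 12608 FPKM in males.

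Lysosomes are acidic organelles in which enzymes break down proteins, sugar chains, lipids and nucleic acids brought in by endocytosis and autophagy. Most of the enzymes are made with a mannose 6-phosphate tag that routes them from the Golgi, while membrane glycoproteins line the organelle and carry cholesterol and other products out. In liver, hepatocytes use lysosomes to turn over organelles and lipid droplets, and the resident macrophages, the Kupffer cells, use them to digest what they take from blood. The transcription factor TFEB is known to act on many lysosomal genes through a promoter element called CLEAR, a form of the E-box.

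Of the 35 genes, 8 were higher in female liver, 2 were higher in male liver and 25 were not called. The called share was 28.6%, beside 13.8% of all measured genes in the same table. In the female direction it was 22.9% of the lysosomal genes beside 7.14% of all measured genes, and in the male direction 5.71% beside 6.68%. As the list was chosen with earlier results of these data known, these shares are a description and not a test. The 8 genes higher in female liver were the proteases Ctsc, Ctss and Ctsb, the lipid hydrolases Lipa and Asah1, the cofactors Npc2 and Grn, and the membrane protein Cd68. The 2 higher in male liver, Lamp1 and Scarb2, both encode membrane proteins of the lysosome, and none of the 10 glycosidases was called. The differences were small: the female folds in the authors' deposited table ran from 1.20 to 2.14 with a median of 1.31, and Ctsc alone reached 2-fold. Because the samples are whole liver, fewer cells of a type and less RNA per cell cannot be told apart. The median log2 ratio of male over female was -0.03 over the 35 genes and 0.01 over all measured genes.

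**Figure D1:**
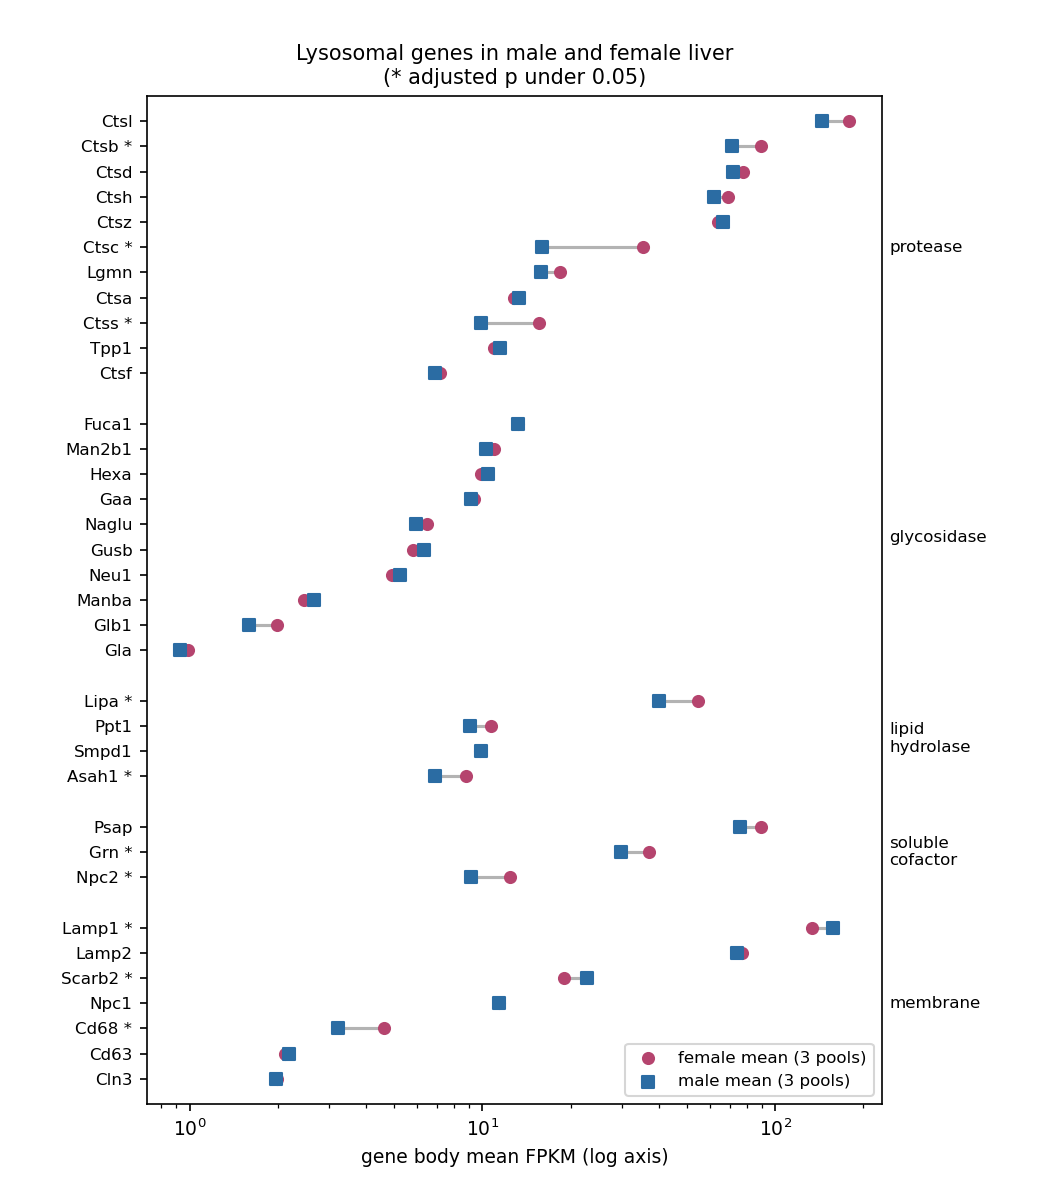
Authors' mean FPKM in gene bodies (log axis) of the 35 lysosomal genes in female liver (circles) and male liver (squares), each a mean over 3 pools with no error given, ordered by level within each role; an asterisk marks an adjusted p under 0.05. Levels span from Gla near 1 FPKM to Ctsl at 178.2 FPKM in females, and the widest gap between the sexes is that of Ctsc, at 35.5 against 15.99 FPKM.

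Lysosomal genes were mostly well expressed, and 30 of the 35 lay above the median of 3.62 FPKM of all measured genes. Together they made up 0.476% of the summed FPKM in female and 0.405% in male liver. Genes of higher level were called more often in the whole table, so a share above a common floor is given as well. At a mean of at least 10 FPKM 8 of 21 lysosomal genes were called (38.1%), beside 20.7% of all genes above that floor. Levels above the floor were not matched between the sets. With an adjusted p under 0.01 there were 4 calls, or 11.4%, beside 9.47% of measured genes, and all 4 were higher in female liver: Ctsc, Ctss, Lipa and Npc2. The order of levels was much the same in both sexes, with 13 genes at the same rank and the largest shift, 7 places, in Ctss.

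Promoter sequence was looked at next, because CLEAR elements are a known shared feature of lysosomal genes. RefSeq promoters (build GRCm38.p6, 250 bases before to 50 bases after the annotated start) were matched by symbol for 31 of the 35 genes, Ctsb, Ctsh, Asah1 and Npc1 being without a match, and Ctsa, Cln3, Lgmn and Psap had 2 starts. The core of the element was searched as TCACGTG on both strands, which contains the E-box CACGTG. It was present in 9 of the 31 genes (29.0%), in 4.29% of all 27025 genes with a promoter and in 7.28% of the 8117 measured genes matched by symbol. The longer palindrome TCACGTGA was present in 4 of the 31 (Cln3, Ctsa, Ctsd and Gla), in 1.12% of all genes and in 2.32% of the measured genes. The E-box itself was found in 11 of the 31 (35.5%), in 8.09% of all genes and in 12.1% of the measured genes.

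The windows below show each match outside Lamp1 with 10 bases on either side where the promoter allowed, read 5′ to 3′ in the direction of the gene, with the match in capitals. Capitals of 8 letters are the palindrome, and CACGTGA alone is the core read on the other strand.
Cln3 chr7:126583369-126583395 minus strand: aaccctcaagCACGTGAtggaaggctc
Cln3 chr7:126583341-126583368 minus strand: acgggtactgTCACGTGAcccccaacct
Ctsa chr2:164833750-164833777 plus strand: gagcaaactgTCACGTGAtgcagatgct
Ctsa chr2:164833767-164833794 plus strand: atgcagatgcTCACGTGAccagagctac
Ctsd chr7:142388056-142388077 minus strand: tccccCACGTGAcctgtatcca
Ctsd chr7:142387909-142387936 minus strand: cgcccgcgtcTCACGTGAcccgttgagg
Gaa chr11:119267812-119267838 plus strand: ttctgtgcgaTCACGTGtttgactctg
Gla chrX:134601216-134601243 minus strand: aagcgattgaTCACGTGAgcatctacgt
Gla chrX:134601183-134601210 minus strand: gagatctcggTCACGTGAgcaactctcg
Glb1 chr9:114401019-114401045 plus strand: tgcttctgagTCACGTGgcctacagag
Lgmn chr12:102439126-102439152 minus strand: ggaatgtctgTCACGTGgtccatttta
Naglu chr11:101070010-101070036 plus strand: aaccttcaggTCACGTGgcccgaggtc

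Lamp1 had 4 of the 16 matches, the most of any of the 9 genes, with first bases between positions -62 and -16 from the start. Its 250 upstream bases are shown because, of the called genes with a promoter to search, it alone held the element; capitals mark the 4 matches.
Lamp1 chr8:13158911-13159160 plus strand: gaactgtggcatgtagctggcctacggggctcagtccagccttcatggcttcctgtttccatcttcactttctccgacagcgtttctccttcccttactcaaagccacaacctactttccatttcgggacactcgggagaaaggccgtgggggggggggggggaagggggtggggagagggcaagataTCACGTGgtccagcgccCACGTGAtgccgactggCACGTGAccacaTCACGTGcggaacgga

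Ctsc, with the largest sex difference of the group, had no match to the CLEAR core. Its 250 upstream bases are shown with capitals on a match to TTCNNNGAA, the form bound by STAT5, which relays growth hormone signals in liver, and on a match to GAGGAAGT read on the opposite strand, a form bound by the myeloid factor PU.1.
Ctsc chr7:88277835-88278084 plus strand: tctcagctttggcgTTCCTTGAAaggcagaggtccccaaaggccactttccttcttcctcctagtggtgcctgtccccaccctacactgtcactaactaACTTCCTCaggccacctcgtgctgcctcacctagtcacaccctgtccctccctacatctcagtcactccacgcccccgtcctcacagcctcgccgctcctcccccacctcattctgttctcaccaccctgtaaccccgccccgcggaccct

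TTCNNNGAA was found in 2 of the 31 genes (6.45%), Ctsc and Cln3, in 9.55% of all genes and in 8.39% of the measured genes. Cln3 was not called. GAGGAAGT was found in 4 of the 31 (12.9%), Ctsc, Ctss, Gla and Gusb, in 3.69% of all genes and in 3.50% of the measured genes. Ctsc and Ctss were higher in female liver, and Gla and Gusb were not called. A match is a run of letters and not a measured binding site, and genes without one may be bound outside these 300 bases. Among the 8 genes higher in female liver 6 had a promoter to search, and none of the 6 held the CLEAR core. Of the 2 genes higher in male liver Lamp1 held it and Scarb2 did not, and of 23 genes with a promoter that were not called 8 held it. The 9 genes with the element had ratios of male over female from 0.824 to 1.22 in the authors' deposited table, and the 22 without it from 0.468 to 1.24. The median log2 ratios of these sets were -0.03 and -0.003. Element and sex difference were not tested against each other.

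**Figure D2:**
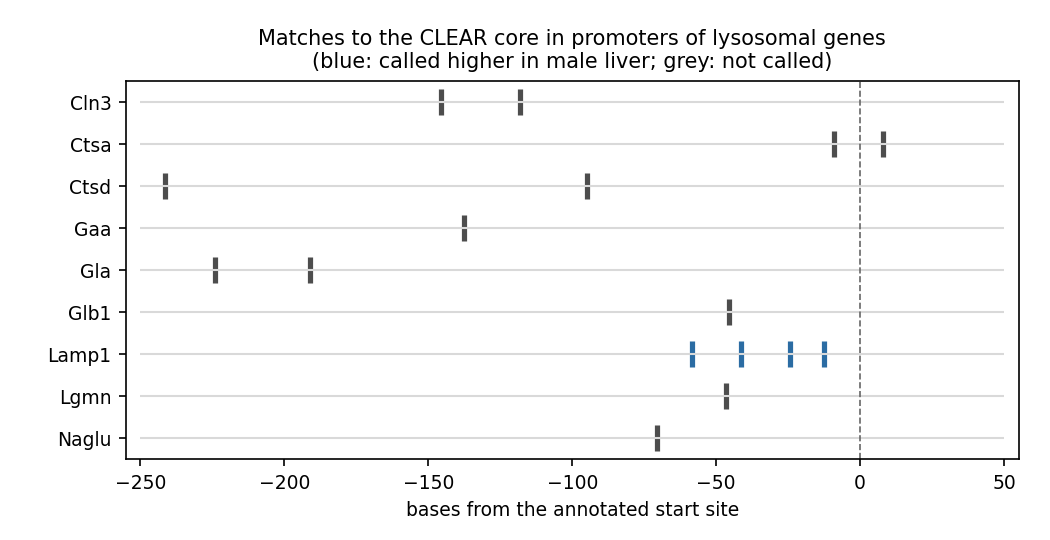
Position of each match to the CLEAR core in bases from the annotated start site, for the 9 lysosomal genes with a match between 250 bases before and 50 bases after it; each tick is the middle of a match, blue for the gene called higher in male liver and grey for those not called. The first bases of the 4 Lamp1 matches lie between -62 and -16, while those of Gla lie at -228 and -195.

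The proteases held the most abundant gene of the group and its largest difference. Ctsc encodes cathepsin C, which removes dipeptides from protein ends and activates serine proteases of immune cell granules (chromosome 7, 95426603 to 95459385, mm9). Its authors' mean was 35.5 FPKM in females and 15.99 FPKM in males. By the authors' deposited table this was a 2.14-fold higher female value with an adjusted p of 7.93e-25. In introns, where reads come from unspliced RNA, the means were 0.970 and 0.422 FPKM, a 2.09-fold difference in the same direction with an adjusted p of 4.16e-05 in the authors' deposited table. Of the 35 genes, Ctsc was the only one called in both readouts.

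Ctss encodes cathepsin S, which trims the invariant chain of MHC class II in antigen-presenting cells (chromosome 3, 95330708 to 95360327, mm9). It was listed at 15.6 FPKM in females and 9.85 FPKM in males. By the authors' deposited table this was a 1.52-fold higher female value with an adjusted p of 0.000171. Ctsb encodes cathepsin B, a cysteine protease of most cell types (chromosome 14, 63741299 to 63764760, mm9). Its authors' means were 89.8 FPKM in females and 71.0 FPKM in males, 1.22-fold apart at an adjusted p of 0.0436 in the authors' deposited table. The span of Ctsb shares 773 bases with Fdft1, a cholesterol synthesis gene at 23.7 FPKM in females and 19.5 FPKM in males, and the sources do not say whether reads were counted by strand.

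The other 8 proteases were not called, and their ratios of male over female ran from 0.841 to 1.09. Ctsl, the endopeptidase cathepsin L, had the highest level of the 35 genes, at 178.2 FPKM in females and 144.5 FPKM in males. Its adjusted p of 0.0938 in the authors' deposited table missed the threshold, although its 1.19-fold difference was close to that of Ctsb. Ctsd, the main aspartic protease of lysosomes, was listed at 77.9 FPKM in females and 71.6 FPKM in males. Ctsh, which acts mainly as an aminopeptidase, had 68.9 and 62.0 FPKM, female first, as in the rest of this paragraph. Ctsz, a carboxypeptidase, had 63.9 and 66.4 FPKM; none of these abundant proteases was called. Lgmn, the asparaginyl endopeptidase legumain that processes cathepsins, had 18.4 and 15.9 FPKM. Ctsa, a carboxypeptidase that also shields beta-galactosidase and neuraminidase from breakdown, had 12.8 and 13.4 FPKM. Its span shares 1515 bases with Pltp, a phospholipid transfer protein gene at 7.28 and 5.95 FPKM. Tpp1, which removes tripeptides, had 10.9 and 11.4 FPKM, and Ctsf, cathepsin F, had the lowest level of the class at 7.14 and 6.89 FPKM.

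Glycosidases, which trim sugars from glycogen, glycoproteins and glycolipids, were the class with the lowest levels and with no call. Their ratios in the authors' deposited table lay between 0.824 and 1.13, 4 below and 6 above 1 (Gaa and Gla changed side after quantile normalization), and their median log2 ratio was 0.03. Fuca1, which removes fucose, was listed at 13.2 FPKM in both sexes. Man2b1, an alpha-mannosidase, had 10.9 FPKM in females and 10.3 FPKM in males. Hexa, the alpha subunit of beta-hexosaminidase, had 9.91 and 10.4 FPKM, in the same order. Gaa, which frees glucose from glycogen in the lysosome, had 9.38 and 9.12 FPKM, so the sexes lay close together for each of these enzymes. Naglu, an enzyme of heparan sulfate breakdown, was listed at 6.45 and 5.93 FPKM. Gusb, beta-glucuronidase, had 5.81 and 6.31 FPKM, and Neu1, the neuraminidase that removes sialic acid, 4.91 and 5.23 FPKM. The lowest levels belonged to Manba, the beta-mannosidase, at 2.46 and 2.67 FPKM, to Glb1, the beta-galactosidase, at 1.99 and 1.59 FPKM, and to the X-linked Gla, the alpha-galactosidase lacking in Fabry disease, at 0.986 and 0.929 FPKM. Glb1 had the largest difference of the class, 1.21-fold toward female liver, with an adjusted p of 0.382 in the authors' deposited table, on a level that rests on fewer reads.

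Among the lipid hydrolases Lipa, the acid lipase that splits cholesteryl esters and triglycerides (chromosome 19, 34566806 to 34601964, mm9), was the most abundant. Its authors' mean was 54.4 FPKM in females and 40.2 FPKM in males, 1.3-fold apart with an adjusted p of 0.000607 in the authors' deposited table. Asah1, the acid ceramidase (chromosome 8, 42425997 to 42460051, mm9), was listed at 8.79 FPKM in females and 6.90 FPKM in males. Its adjusted p of 0.0495 in the authors' deposited table lay just under the threshold, at a 1.23-fold difference. Ppt1, which removes palmitate from proteins, had 10.7 and 9.06 FPKM and was not called (adjusted p of 0.355 in the authors' deposited table). Smpd1, the acid sphingomyelinase, had 9.81 FPKM in females and 9.89 FPKM in males.

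The soluble cofactors all had ratios below 1. Npc2, which binds cholesterol in the lysosome and hands it to the membrane protein NPC1 (chromosome 12, 86095509 to 86114062, mm9), was listed at 12.4 FPKM in females and 9.16 FPKM in males. By the authors' deposited table this was a 1.31-fold higher female value with an adjusted p of 0.000777. Grn encodes progranulin, a secreted protein that lysosomes cleave into granulins (chromosome 11, 102291636 to 102298123, mm9). It had 37.1 FPKM in females and 29.7 FPKM in males, 1.20-fold apart at an adjusted p of 0.0357 in the authors' deposited table. Psap, the precursor of the saposins that present sphingolipids to their hydrolases, had 89.7 and 76.1 FPKM and was not called (adjusted p of 0.265 in the authors' deposited table).

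The membrane proteins differed in both directions. Lamp1, a heavily glycosylated protein that lines the lysosomal membrane (chromosome 8, 13159135 to 13175338, mm9), was listed at 134.2 FPKM in females and 157.2 FPKM in males. It was 1.22-fold higher in males by the authors' deposited table, at an adjusted p of 0.0128. Scarb2, the membrane protein LIMP-2 that carries beta-glucocerebrosidase to lysosomes (chromosome 5, 92872899 to 92934634, mm9), had 19.0 FPKM in females and 22.7 FPKM in males. The male value was 1.24-fold higher, at an adjusted p of 0.0130 in the authors' deposited table. Cd68, a lysosomal glycoprotein that is also a common macrophage marker (chromosome 11, 69477715 to 69479672, mm9), had 4.62 FPKM in females and 3.20 FPKM in males, and was 1.39-fold higher in female liver with an adjusted p of 0.0162 in the authors' deposited table. Lamp2, the X-linked relative of Lamp1 that serves autophagy, had 76.9 FPKM in females and 74.0 FPKM in males and a ratio of 0.999. Npc1, the cholesterol exporter of the membrane, was listed at 11.4 FPKM in both sexes. Cd63, a tetraspanin, had 2.11 FPKM in females and 2.19 FPKM in males, and Cln3, a membrane protein lost in juvenile Batten disease, had 1.98 and 1.96 FPKM.

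Intron values give a second readout of the same libraries. Intronic levels of the lysosomal genes were low, from 0.00660 to 1.03 FPKM as the mean of both sexes, and on the median 0.821% of the gene body level, beside 1.43% over all measured genes. The highest share was that of Neu1, 20.3%, and the lowest that of Lgmn, 0.156%. Besides Ctsc none of the 35 was called in introns, which is 2.86% of the 35, beside 4.1% of measured genes with an intronic value. Of the 8 genes higher in female liver in gene bodies, 6 also had an intronic ratio below 1 in the authors' deposited table: Ctsb, Ctsc, Ctss, Lipa, Npc2 and Grn. The median intronic log2 ratio of all 35 was -0.05, so a ratio below 1 was common among them. Asah1 had an intronic log2 ratio of 0.07 and Cd68 one of 0.62, both with an adjusted p of 1 in the authors' deposited table. The intronic ratios of Lamp1 and Scarb2 were above 1, with log2 values of 0.09 and 0.45 and no call. Across the 35 genes the log2 ratios of gene bodies and introns had a Pearson correlation of 0.59 and a Spearman correlation of 0.59. This is a description across genes measured in the same libraries, where intronic values of genes such as Cd63 (0.00625 FPKM in females and 0.0204 FPKM in males) rest on few reads.

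**Figure D3:**
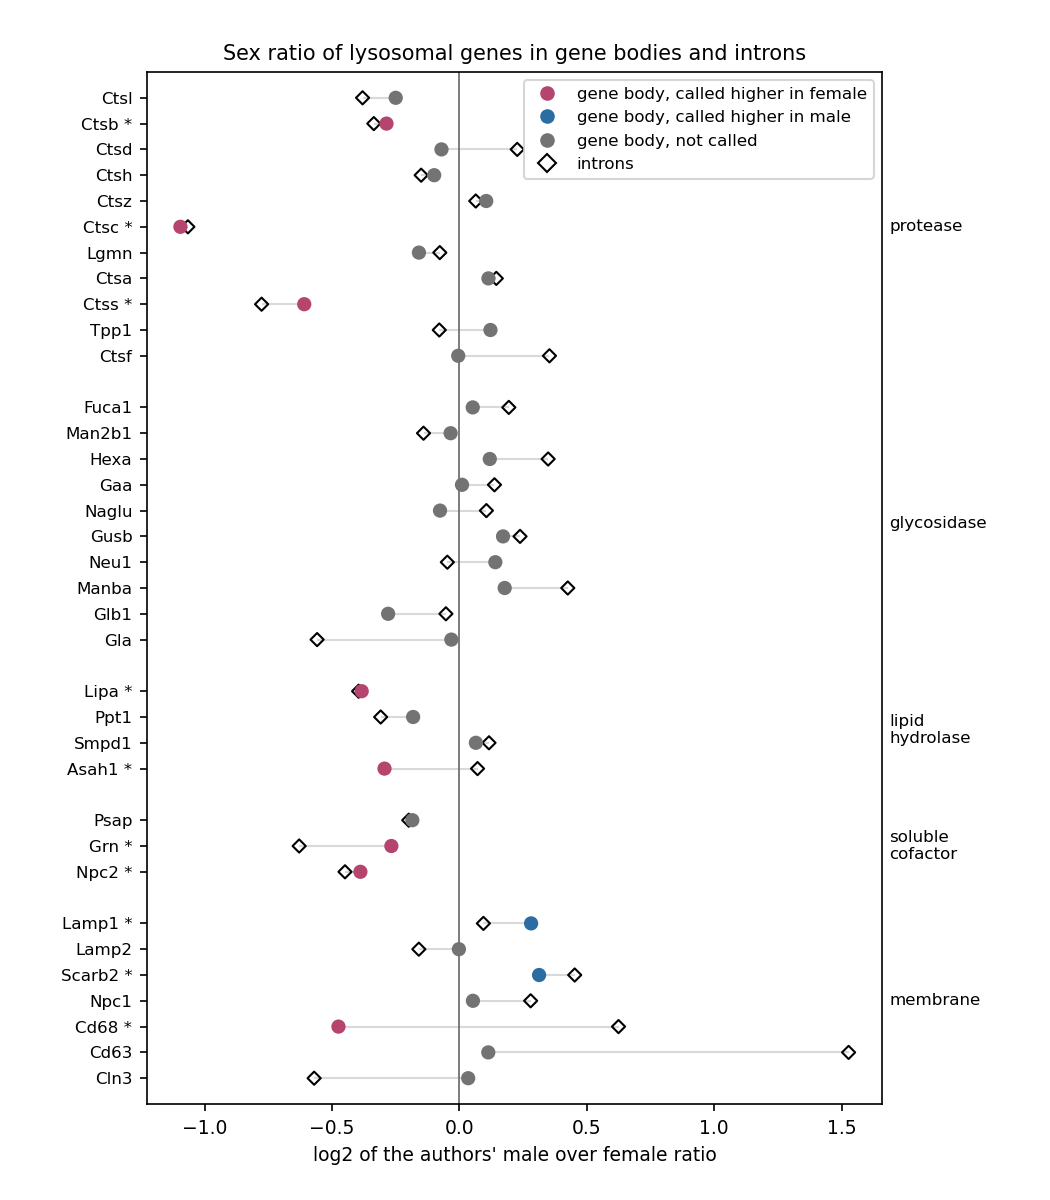
Log2 of the authors' male over female ratio for each of the 35 lysosomal genes in gene bodies (filled circles, coloured by call) and in introns (open diamonds), with genes ordered as in the plot of levels; values left of 0 are higher in female liver and no error is given. Ctsc lies farthest left in both readouts, at -1.09 in gene bodies and -1.07 in introns. Among the called genes Cd68 and Asah1 change side, and among the others Cln3, Ctsd, Ctsf, Naglu, Neu1 and Tpp1 do.

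Markers of other cell types were read beside these genes. Of 15 measured macrophage markers 14 were called toward females and none toward males, beside 7.14% of all measured genes called higher in female liver. Folds in the authors' deposited table ran from 1.34 to 7.55 with a median of 1.5, and the summed level of the 15 was 212 FPKM in females and 136 FPKM in males. Cd5l and Clec4f, made by Kupffer cells, had the highest female means, 32.9 and 32.8 FPKM against 21.9 and 22.4 FPKM in males. The complement gene C1qa had 22.6 and 14.5 FPKM, and was 1.5-fold higher in female liver at an adjusted p of 0.00875 in the authors' deposited table. Marco, a scavenger receptor, had the largest fold of the list at 9.08 against 1.15 FPKM. Mpeg1, the measured marker that was not called, had 12.4 FPKM in females and 8.89 FPKM in males, and Fcgr1 was under 0.5 FPKM. None of the 16 markers was at 0. The female folds of Ctss (1.52) and Cd68 (1.39) lay within the range of this list. Those of Lipa, Npc2, Asah1, Ctsb and Grn lay below it. They were within the 1.09 to 1.34 of 10 markers of sinusoidal endothelium, all toward females. The same folds were also within the female over male ranges of 10 stellate cell markers (0.878 to 1.43) and 10 hepatocyte markers (0.623 to 1.48). These 2 lists held genes in both directions. Ctsc, at 2.14, lay between Spic (2.23) and Folr2 (1.65). The part of RNA from any of these cell types in the female-biased lysosomal genes was not tested. Lamp1 and Scarb2 differed in the direction opposite to the macrophage markers.

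**Figure D4:**
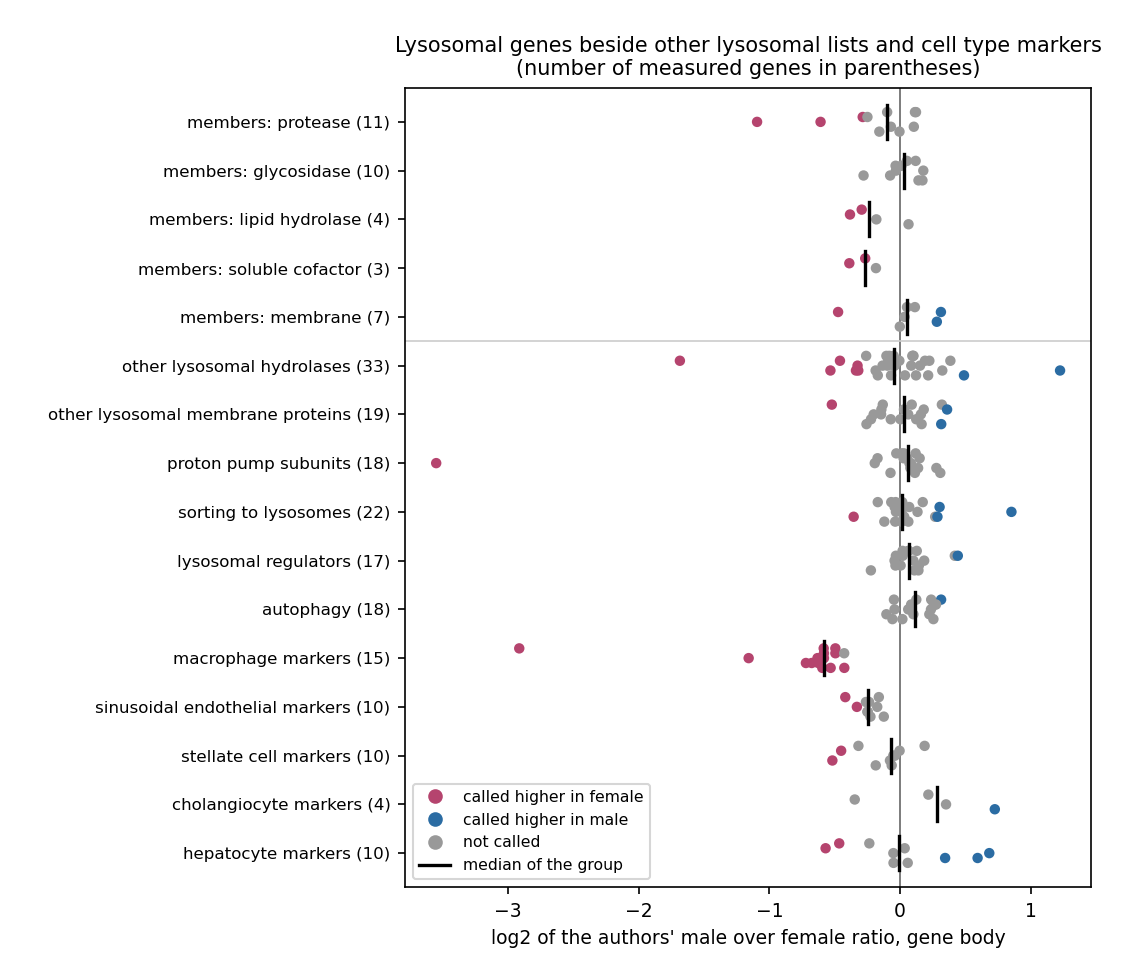
Log2 of the authors' male over female ratio in gene bodies for the lysosomal genes by role (above the line), further lysosomal lists and cell type markers (below it); each point is a gene, coloured by call, and black bars are medians. The glycosidases and most other lysosomal lists centre near 0, and the macrophage markers centre at -0.58.

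Other genes of the lysosomal pathway were counted from lists of known function, also chosen with earlier results of these data known. Over 7 such lists 9 of 129 measured genes were called toward females and 9 toward males, so 14% were called, close to the 13.8% of all measured genes. The pooled share did not hold for each list. Of 33 other lysosomal hydrolases and their partners 6 were called toward females and 2 toward males, and their median log2 ratio was -0.05. Their female share lay between the 7.14% of all measured genes and the 22.9% of the lysosomal group described first. Each other list of the pathway had a female share below 7.14%. Differences between lists were not tested. Hpse, the heparanase, was 1.45-fold higher in females at 1.15 against 0.772 FPKM by the authors' deposited table. Arsa, arylsulfatase A, had 4.85 FPKM in males and 2.15 FPKM in females, 2.34-fold apart in the authors' deposited table, and was called in introns as well at an intronic log2 ratio of 1.42. Dpp7, a dipeptidyl peptidase, was 1.40-fold higher in male liver at 6.60 against 4.88 FPKM in the authors' deposited table. Acp5, an acid phosphatase of macrophages and osteoclasts and the most abundant of these hydrolases not called, had 32.5 FPKM in females and 31.3 FPKM in males.

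Of 19 other membrane proteins 1 was higher in female and 2 in male liver. Laptm5, a protein of blood cell lysosomes, had 4.38 FPKM in females and 2.94 FPKM in males. Slc17a5, the sialic acid exporter, had 4.16 and 5.15 FPKM, and Sppl2a, an intramembrane protease, 16.3 and 19.5 FPKM, in the same order. Laptm4a and Tpcn1 were the most abundant not called, at 47.1 and 8.50 FPKM in female liver and 43.2 and 7.13 FPKM in male liver. Of 18 subunits of the proton pump that acidifies lysosomes 1 was called, Atp6v0d2, a tissue-restricted form of the d subunit, at 4.22 FPKM in females and 0.347 FPKM in males. By the authors' deposited table it was 11.7-fold higher in females, and it was called in introns too, at a log2 ratio of -2.70. The widely expressed subunits Atp6v0c and Atp6v1g1 had 43.3 and 27.7 FPKM in female liver against 42.7 and 27.2 FPKM in males and were not called.

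Among 22 genes that sort proteins to lysosomes 3 were called toward males and 1 toward females. Sort1, the sorting receptor sortilin, had 2.45 FPKM in males and 1.40 FPKM in females, 1.81-fold apart in the authors' deposited table. The tethering subunits Vps41 and Vps33a exceeded the female value 1.23-fold and 1.22-fold in males, and the Golgi adaptor Gga2 1.28-fold higher in females, by the authors' deposited table. M6pr, the cation-dependent mannose 6-phosphate receptor, had 25.9 FPKM in females and 23.0 FPKM in males and Rab7, the GTPase of late endosomes, 38.5 and 37.2 FPKM, and neither was called. Of 17 regulators of lysosomes, TFEB and mTORC1 components among them, Zkscan3, described as a repressor of lysosomal and autophagy genes, was called, 1.36-fold higher in male liver at 7.63 against 5.85 FPKM in the authors' deposited table. Lamtor2 and Lamtor1, which anchor mTORC1 at the lysosome, were not called, at 41.1 and 17.4 FPKM in female and 38.5 and 16.4 FPKM in male liver. Of 18 autophagy genes Map1lc3a was called, 1.24-fold higher in male liver at 12.2 against 10.2 FPKM in the authors' deposited table. Gabarapl1 and the cargo receptor Sqstm1, at 102 and 77.2 FPKM in male and 90.3 and 79.1 FPKM in female liver, were not called. Of 10 inhibitors of cysteine cathepsins 2 were measured and neither was called: Cst3, cystatin C, had 56.7 FPKM in females and 45.1 FPKM in males, and Cstb had 17.3 and 16.8 FPKM.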

How the data were processed

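Poly-A selected liver RNA was sequenced from 3 pools per sex. For gene bodies and again for introns only, the authors deposited the FPKM averaged within each sex, the male to female ratio after a further normalization, a signed fold change (a score) and adjusted p-values, per the file headers. For the authors' steps, the submitters' processing notes name TopHat2, featureCounts, edgeR and mm9. Their versions and roles, strand counting, the p-value adjustment and the scaling of intronic FPKM were not given in the sources used here. No gene counts per pool were used, so no test was refitted across all genes: the authors' deposited comparison is described. Gene body values exclude intronic reads, since 929 genes were at 0 there and above 0 in introns. Against the plain ratio of mean FPKM, the deposited ratio was higher by a median factor of 1.04. Log2 values and folds toward female liver were computed here from the deposited ratio.

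Genes averaging 0.5 FPKM or more over both sexes are called measured. The members and all gene lists were chosen with earlier results of these data known. All 35 members were named; of each other list, the called genes if 5 or fewer (otherwise the 2 largest folds per direction) and the 2 most abundant not called, and the 3 most abundant macrophage markers; other macrophage markers named were chosen after their values were seen. Single values of a few genes that this rule names are not reported here. Adgre1 was matched as Emr1. Cell type lists covered macrophages, neutrophils and monocytes, lymphocytes, sinusoidal endothelium, stellate cells, cholangiocytes and hepatocytes. Starts were raised by 1 base, as the span of 98.1% of 1221 small RNA genes equalled the RefSeq length without it. Library totals came from small RNA genes with a lone read in 1 pool. Scripts, tested on simulated data, ran in Python 3.11.15 with numpy 2.4.6 and pandas 2.3.3. Alternatives were a threshold of 0.01, other minimum levels, pseudocounts of 0.01, 0.1 and 1 FPKM on the log2 scale, quantile normalization, rescaling without the 50 most abundant genes, the intron readout, and leaving out members that overlap another gene.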

Additional observations from a re-analysis of the deposited data

How the results depend on the processing

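The count of lysosomal genes higher in female liver was 8. It was 4 at an adjusted p under 0.01, which is fewer by construction, and 1 in introns, where levels were low. It was 8 at 2 FPKM or more in either sex, and, in alternatives chosen after seeing the data, 6 among genes averaging 10 FPKM or more and 7 without the 8 genes that overlap another gene of the table. The count higher in male liver was 2, and it was 0 at an adjusted p under 0.01, 0 in introns and 1 without the overlapping genes, which leaves out Scarb2, whose span holds the microRNA gene Mir6415 (listed at 0 in both sexes). Unadjusted p-values are not part of the table used here. In introns the log2 ratio of Asah1 was 0.0715 and that of Cd68 0.62, the reverse of their gene body direction, and the cause was not tested. The median log2 ratio of the 35 genes was -0.03 and lay between -0.08 and -0.02 under every alternative run. Among all measured genes the median moved from 0.01 to -0.04 when mean FPKM with a pseudocount of 0.01 replaced the authors' ratio, and it was 0.01 after quantile normalization. None of the 10 called genes changed direction with a pseudocount of 0.1 or with quantile normalization. Among the 25 genes not called, Cln3 and Gaa changed side of 1 with a pseudocount of 0.1, Gaa, Gla and Lamp2 after quantile normalization, and Cln3, Ctsd, Ctsf, Naglu, Neu1 and Tpp1 in introns. No paired analysis was possible because the table holds means per sex, with no value per pool. For the same reason no pool could be left out.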

Other observations

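Markers of other liver cell types were counted beside the 7.14% of all measured genes called higher in female liver and the 6.68% called higher in male liver. Of 10 markers of sinusoidal endothelium 2 were called toward females and none toward males (median log2 ratio -0.24): Oit3, at 6.70 against 4.82 FPKM, and the orphan receptor Gpr182, at 8.20 against 6.28 FPKM, female first. All 10 had a ratio below 1, and Clec4g and Fcgr2b, the most abundant, were not called, at 28.9 and 18.9 FPKM in females and 24.9 and 15.2 FPKM in males. Of 10 stellate cell markers 2 were higher in female liver (median log2 ratio -0.07): Reln, which encodes reelin, at 3.86 against 2.60 FPKM, and Lrat, which stores retinol as ester, at 2.43 against 1.71 FPKM. Dcn and Colec11 were not called, at 39.0 and 12.0 FPKM in females and 33.0 and 11.0 FPKM in males. Spp1, osteopontin, was the called one of 4 measured cholangiocyte markers, at 12.8 FPKM in males and 8.05 FPKM in females, and Sox9 was not called, at 0.832 against 0.673 FPKM in the same order. The neutrophil genes S100a8 and S100a9, the 2 measured of 8, had 3.55 and 3.57 FPKM in males and 2.68 and 2.37 FPKM in females and were not called. The 9 lymphocyte markers in the table were all under 0.5 FPKM, with a highest mean of 0.366 FPKM. At these low levels each leaned toward females, with ratios of male over female from 0.335 (Cd3e) to 0.989 (Cd79b). Cd3e had an adjusted p of 0.00138 in the authors' deposited table. Hepatocyte markers went both ways, with 3 of 10 higher in male and 2 in female liver: Apoa1, Serpina1a and Apob against Alb and Cps1. Ttr and Ahsg were the most abundant not called, at 1718 and 2890 FPKM in females and 1725 and 2367 FPKM in males.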
